A study of Canis lupus familiaris with 8 samples.

Results

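miR-21 (cfa-miR-21 in the table) was followed as the single row of that name in a table of 452 mature miRNAs (511 loci) from vesicles shed into culture medium by dog mammary cells. It was chosen by name, with earlier results of these data known, and it was present in all 8 libraries. The tumour group, CMT, held 5 canine mammary carcinoma lines (CMT-12, CMT-27, CMT-28, CMT-47, CMT-119), with 1 library each. The normal group, CMEC, held 3 biological replicates of normal canine mammary cells (CMEC1, CMEC2 and CMEC3), and whether these were different animals is not stated. All cells of both groups grew in serum-free medium with antibiotics and received no other agent named in the labels. Medium conditioned over 48 hours was taken on day 3, after a first 24 hours whose medium was not used. RNA from 5 mL was extracted with a kit for exosomal RNA, and small RNA was sequenced as single reads of 50 bases. P-values below measure the spread between these samples.

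miR-21 is a short RNA that guides Argonaute proteins to messenger RNAs and lowers their output. Its gene is switched on by STAT3 and AP-1 in human and mouse cells, and its described targets include PDCD4, a translation inhibitor. It is widely described as raised in carcinomas, breast carcinoma included, and it is a common constituent of extracellular vesicles. In the dog genome build canFam3, as the table gives it, mature miR-21 has 1 locus of 22 bases, on chromosome 9 from 34340550 to 34340571 on the plus strand. The nearest other miRNA of the table on that chromosome is miR-301a, which starts 615966 bases away.

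The table's values are reads divided by 1 factor per library, with a floor of 1. Reads recovered from the values were fewest for CMT-12, at 81138, and most numerous for CMT-27, at 1405893. Markers of epithelial cells (the miR-200 family, miR-203 and miR-205) summed to between 0.00141% and 2.13% of a CMT library and to at most 0.0210% of a CMEC library, and miR-141 was at the floor in all 8. Markers of mesenchymal or smooth-muscle-like cells (miR-143, miR-145, miR-199, miR-214, miR-152 and miR-140) summed to between 0.263% and 16.6% in CMT and between 9.79% and 18.8% in CMEC. Most of the larger sums was 1 miRNA: miR-143 held 17.8% in CMEC2, 12.8% in CMEC3 and 13.9% in CMT-47, and miR-140 held 7.97% in CMEC1. In CMEC1 miR-199 held 0.0294% and miR-214 was at the floor. By deposited mean, 5 of these markers were lower and 1, miR-140, was higher in CMT. Of the 7 epithelial markers, 4 were above the floor in at least 3 libraries, and the markers that define epithelial cells were near or at the floor in the CMEC samples and in CMT-28, CMT-47 and CMT-119.

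miR-21 held the first place in each of the 8 libraries. Its share of the summed value was 49.6% in CMT-27, 63.1% for CMT-28, 24.9% for CMT-12, 54.4% for CMT-47 and 54.0% for CMT-119. In the normal samples it was 51.8% in CMEC1, 27.9% in CMEC2 and 32.5% in CMEC3. The groups overlapped at both ends, with CMT-12 below every normal sample and CMEC1 above CMT-27. The mean share was 49.2% ± 14.5 for the tumour lines (SD, n = 5) and 37.4% ± 12.6 for the normal samples (SD, n = 3). The difference of 11.8 percentage points did not exceed the spread between libraries (two-sided exact permutation test over 56 splits, p = 0.339, and 0.424 after Benjamini-Hochberg adjustment over the 5 single-value tests made here; the smallest p this design can give is 0.0179). Since vesicles were sampled in bulk, more vesicles rich in miR-21 and more miR-21 per vesicle cannot be told apart.

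**Figure D1:**
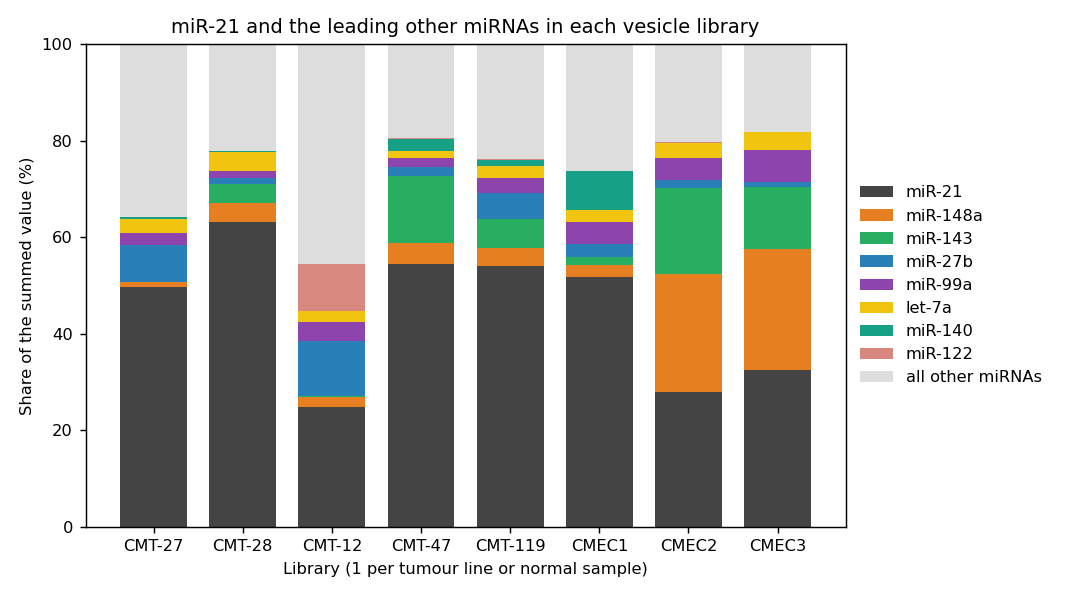
Stacked bars show, for each library (x axis), the share of the summed value in percent (y axis) held by miR-21 and by 7 other abundant miRNAs, with the remainder in light grey. miR-21 is the largest single miRNA of every bar, at 24.9% in CMT-12 and 63.1% in CMT-28, and miR-148a is nearly as large in CMEC2 and CMEC3.

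Counting error was small beside these gaps. miR-21 itself had 20195 recovered reads in CMT-12 and 24034 in CMEC2, the smallest numbers, and 697457 in CMT-27, the largest. The 95% Wilson interval of its share ran from 24.6% to 25.2% in CMT-12 and from 63.0% to 63.2% in CMT-28. These intervals cover counting error only, because PCR copies of 1 molecule cannot be told from separate molecules here. In descending order the libraries were CMT-28, CMT-47, CMT-119, CMEC1, CMT-27, CMEC3, CMEC2 and CMT-12. No 2 neighbours in that order had overlapping intervals, not even CMT-47 and CMT-119, which were 0.457 percentage points apart. With 1 library per tumour line the spread between cultures of a line is unknown. Every gap between neighbours was smaller than the SD of the CMT lines except the 17.1 points between CMT-27 and CMEC3.

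The 2 libraries with the lowest shares, CMT-12 and CMEC2, were also those with the fewest recovered reads, at 81138 and 85906. Without both, the difference between groups was 13.1 percentage points (exact permutation p = 0.133, where 4 against 2 libraries cannot go below 0.0667; this alternative was chosen after seeing the data). Single libraries mattered more. Without CMT-12 the CMT mean was 55.3% ± 5.64 (SD, n = 4) and the difference 17.8 points (exact permutation p = 0.0571). Without CMEC1 the CMEC mean was 30.2% ± 3.25 (SD, n = 2) and the difference 18.9 points (exact permutation p = 0.238). Without CMEC2 the difference was 7.03 points (exact permutation p = 0.667). CMT-12 also held the highest sum of blood cell markers, 0.117%, followed by CMEC2 at 0.0345%, with at most 0.00654% in the other CMT lines. In CMT-12 miR-122, a liver miRNA, held 9.74%, against at most 0.277% in the other lines. With miR-122 taken out of the sum, miR-21 had 27.5% in CMT-12, still the lowest of the 8 shares computed that way. Whether depth or the blood markers have a part in the low share was not tested.

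The deposited values gave another order of the libraries. miR-21 was at 482441 in CMT-27, 206329 for CMT-28, 46827 for CMT-12, 394567 for CMT-47 and 261079 in CMT-119. It was at 227746 in CMEC1, 68094 in CMEC2 and 156457 in CMEC3. The highest value was 10.3-fold the lowest, and the groups again overlapped. CMT-28, with the highest share, had a lower value than CMEC1 and than every other tumour line except CMT-12. On the log2(value + 1) scale miR-21 was 0.69 ± 0.96 higher in CMT (SE, 5 against 3 libraries; limma adjusted p = 0.769 over 193 miRNAs).

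In the fit to all libraries that difference was close to that of the profile as a whole. The median log2 difference of the 193 tested miRNAs was 0.75, so that miR-21 stood at -0.05 relative to it. This relative value was not stable: it was 0.47 without CMT-12 and -0.36 without CMT-28, and 0.19 with limma-voom scaled by totals. limma called 0 of 193 miRNAs at an adjusted p under 0.05, a background of 0.00%, and 21 at an unadjusted p under 0.05 (10.9%). limma-voom on the recovered reads called 0 as well. Its sign also depended on the scale: miR-21 was at -0.41 after median centring and at -0.27 with voom scaled by median of ratios, but at 0.38 as a share of the sum and at 0.70 relative to the sum of all other miRNAs. The median of all tested miRNAs moved with it, to -0.36, -0.33, 0.41 and 0.71.

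**Figure D2:**
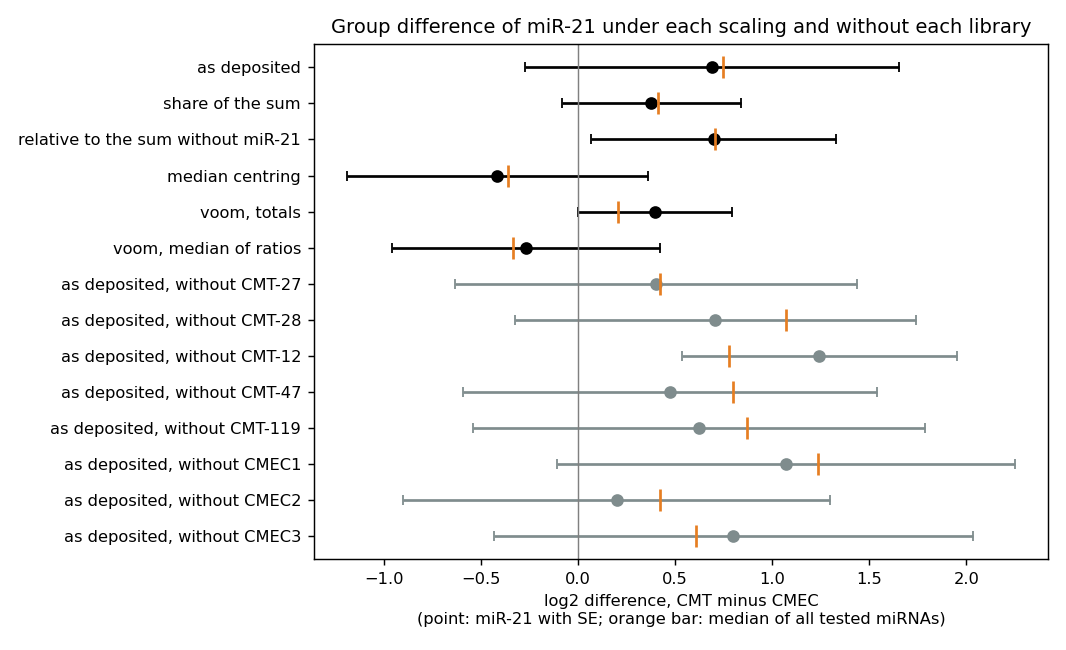
Each row gives the log2 difference of miR-21 between groups (x axis, CMT minus CMEC) as a point with its SE, under 6 scalings and then without each library in turn, and an orange bar marks the median of all tested miRNAs. The point lies close to the bar in the main fit (0.69 against 0.75) and on the other side of 0 after median centring (-0.41).

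**Figure D3:**
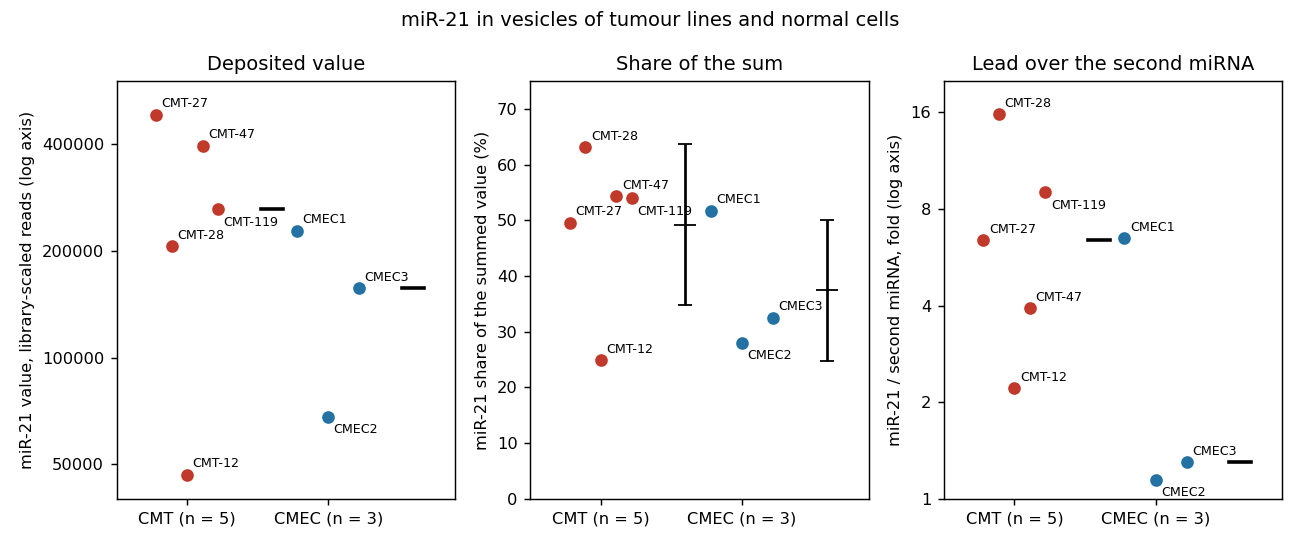
The 3 panels show miR-21 in each library as the deposited value (log axis), as the share of the summed value in percent with the mean and SD at the right of each group, and as the fold over the second miRNA (log axis). Short black bars in the outer panels are group medians. The groups overlap in all 3 panels, and CMEC2 and CMEC3 have the smallest leads, 1.15-fold and 1.30-fold.

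The lead of miR-21 over the second miRNA of the same library is a ratio within a library, so no scaling enters it. miR-21 was 6.39-fold the second miRNA in CMT-27, 15.8-fold for CMT-28, 2.21-fold for CMT-12, 3.92-fold in CMT-47 and 9.01-fold in CMT-119. In the normal samples it was 6.50-fold in CMEC1, 1.15-fold in CMEC2 and 1.30-fold in CMEC3. The lead in CMEC2 and CMEC3 was thus below that in any tumour line, and the lead in CMEC1 lay among those of the tumour lines. The mean log2 lead was 2.59 ± 1.09 for the tumour lines (SD, n = 5) and 1.09 ± 1.40 for the normal samples (SD, n = 3; exact permutation p = 0.143, and 0.238 after adjustment).

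The miRNA in second place was not the same throughout. It was miR-148a, abundant in milk and in secretory mammary tissue, in CMEC2 (24.4%), CMEC3 (25.0%) and CMT-28 (3.99%). It was miR-27b, of a cluster described in adipocyte and vascular biology, in CMT-27 (7.76%) and CMT-12 (11.2%). miR-143, best known from smooth muscle, came second in CMT-47 (13.9%) and CMT-119 (5.99%). miR-140, known from cartilage, came second in CMEC1 (7.97%). The place after it went to let-7a in CMT-27 and CMT-28, to miR-122 in CMT-12, to miR-148a in CMT-47, to miR-27b in CMT-119, to miR-30a in CMEC1 and to miR-143 in CMEC2 and CMEC3. In CMT-28 the second and the third miRNA differed by only 1.01-fold, at 3.99% and 3.95%, whereas in CMT-47 the second was 3.13-fold the next.

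The height of miR-21 over the field can also be counted in miRNAs. In CMEC2 and in CMEC3 the next 2 miRNAs together exceeded miR-21, and in CMT-12 the next 3 did. In CMT-27 the next 72 were needed. In CMT-28, CMT-47, CMT-119 and CMEC1 all other miRNAs together did not reach it, with 1 locus kept per miRNA. With every locus in the sum, miR-21 held 57.6% in CMT-28 and 51.8% in CMT-47. It then held 49.7% in CMT-119 and 46.6% in CMEC1, so that the others together exceeded it in those libraries. The effective number of miRNAs (the inverse Simpson index, which is low when few miRNAs hold most of the sum) was 2.46 to 10.1 in CMT and 3.53 to 5.71 in CMEC. The means were 4.57 ± 3.14 (SD, n = 5) and 4.81 ± 1.13 (SD, n = 3; exact permutation p = 0.964).

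Taking miR-21 out of the sum multiplied the share of every other miRNA in a library by 1 factor. The factor was 1.98 in CMT-27, 2.71 for CMT-28, 1.33 for CMT-12, 2.19 in CMT-47 and 2.17 in CMT-119. It was 2.07 in CMEC1, 1.39 in CMEC2 and 1.48 in CMEC3. On the log2 scale the factor averaged 1.02 ± 0.38 for the tumour lines (SD, n = 5) and 0.70 ± 0.31 for the normal samples (SD, n = 3). Every share therefore moved by 0.32 in favour of CMT, or 1.25-fold, before any pseudocount. This shift follows from the shares of miR-21 alone, which did not differ between groups beyond their spread.

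Without miR-21, the profiles of CMEC2 and CMEC3 were the most concentrated. Their leading other miRNA, miR-148a, held 33.8% and 37.1% of the remainder, against 16.5% for miR-140 in CMEC1. In the tumour lines the leading other miRNA held 15.4% in CMT-27, 10.8% for CMT-28, 15.0% for CMT-12, 30.5% in CMT-47 and 13.0% in CMT-119. The mean was 16.9% ± 7.78 for the tumour lines (SD, n = 5) and 29.1% ± 11.1 for the normal samples (SD, n = 3; exact permutation p = 0.107, and 0.238 after adjustment). Without CMT-47 the difference was -15.6 points (exact permutation p = 0.0286) and without CMEC1 -18.5 points (exact permutation p = 0.0476), each unadjusted and the smallest p possible with those libraries.

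The effective number of miRNAs in the remainder was 20.1 in CMT-27, 16.9 for CMT-28, 15.2 for CMT-12, 8.24 in CMT-47 and 16.1 in CMT-119. It was 15.4 in CMEC1, 5.35 in CMEC2 and 5.21 in CMEC3. The means were 15.3 ± 4.35 (SD, n = 5) and 8.66 ± 5.86 (SD, n = 3; exact permutation p = 0.143, and 0.238 after adjustment). Without CMEC1 the difference went from 6.65 to 10.0 (exact permutation p = 0.0476, unadjusted). Removal of miR-21 raised the effective number 5.19-fold in CMT-27 and 6.88-fold in CMT-28, but it left that of CMEC2 (5.71 before and 5.35 after) and CMEC3 (5.17 and 5.21) almost where it was. With 1 locus kept per miRNA, the number making up 50% of the sum went from 1 to 6 in CMT-28, CMT-119 and CMEC1. It remained 2 in CMEC2 and CMEC3.

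Between 7 and 18 other miRNAs per library held at least 1% of the sum with miR-21 in it, and between 11 and 23 without it. The number grew from 10 to 20 in CMT-28 and stayed at 11 in CMEC2. At a level of 10%, CMT-28 had 0 other miRNAs with miR-21 in the sum and 4 without it: miR-148a (10.8%), let-7a (10.7%), miR-143 (10.4%) and let-7f (10.2%). CMEC2 and CMEC3 had the same 2, miR-148a and miR-143, in both sums.

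**Figure D4:**
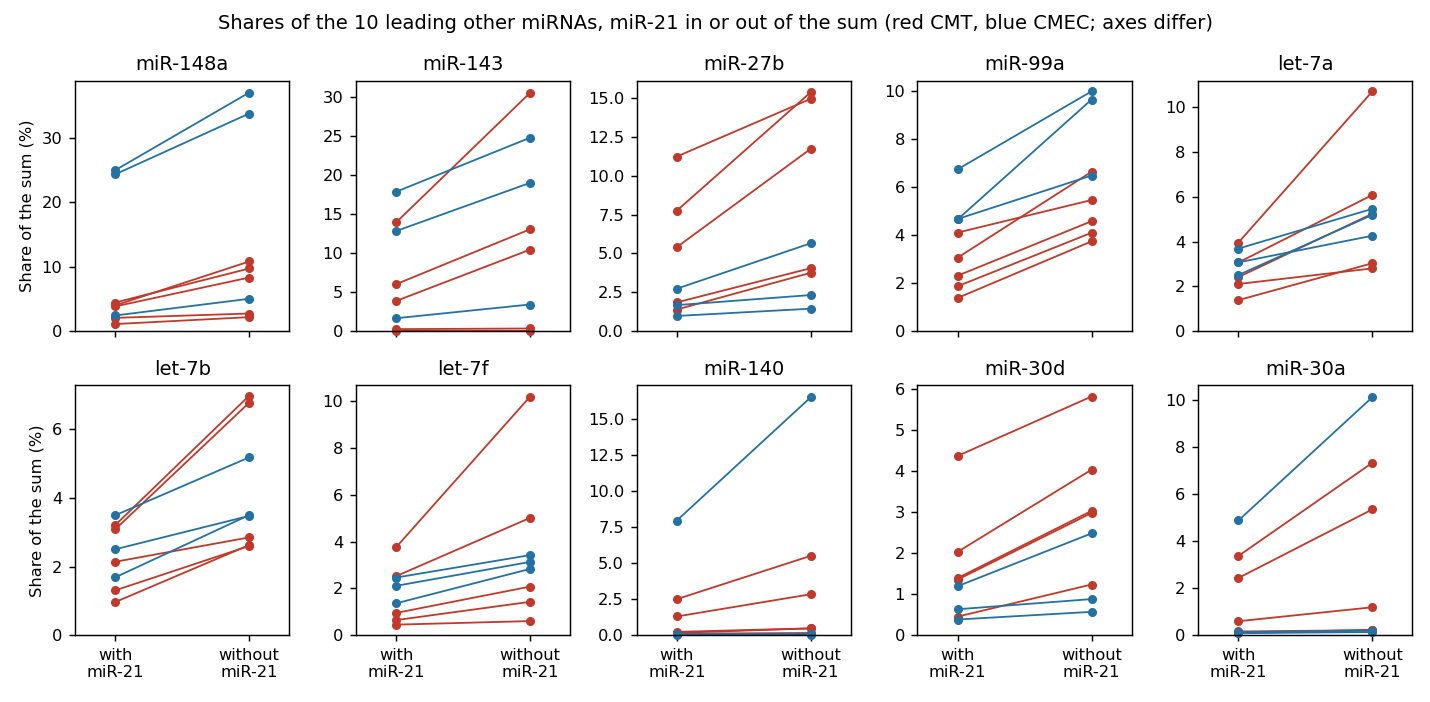
Each panel shows 1 of the 10 leading other miRNAs, with its share of the sum in percent (y axis, own scale) in the 8 libraries when miR-21 is in the sum (left) and out of it (right), CMT in red and CMEC in blue. Lines of CMT-28, whose factor is 2.71, climb most steeply for let-7a and let-7f, and lines cross for miR-99a, where CMT-119 passes CMEC2.

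Crossing lines changed which library stood highest. Of 104 other miRNAs above the floor in all 8 libraries, 24 had their highest share in another library once miR-21 was left out. CMT-12, with the lowest share of miR-21, had the highest share of 41 of them with miR-21 in the sum and of 26 without it. CMT-28, with the highest share of miR-21, went from 6 to 14, and it had the lowest share of 19 before and of 8 after. For miR-143 the highest library changed from CMEC2 (17.8%) to CMT-47 (30.5%). For let-7b, of a family described as tumour-suppressive, it changed from CMEC3 (3.50%) to CMT-119 (6.97%), and for miR-27b away from CMT-12 (11.2%) and towards CMT-27 (15.4%).

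Separation of the groups also depended on the sum. With miR-21 in it, 9 of 192 other tested miRNAs had shares that did not overlap between groups (4.69%), 4 higher (2.08%) and 5 lower (2.60%) in CMT. Without miR-21 there were 12 (6.25%), of which 10 were higher (5.21%) and 2 lower (1.04%). In both sums 6 did not overlap, 3 did not with miR-21 only and 6 did not without it only. Many rest on the floor of the table: in 6 of the 9 and in 6 of the 12 at least 1 library was at the floor. miR-133a and miR-133c had identical mean shares and differences, so they are 1 signal entered under separate names. Both are among the 5 lower and among the 3 that separated with miR-21 only (named after their values were seen). Whether 9 or 12 is more than groups of this size give with no difference between them was not tested. Separations of single miRNAs gained or lost, given below, are therefore a description only.

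miR-99a, encoded beside a let-7 gene, was the most abundant of those whose separation went. Its share with miR-21 in the sum was 2.31% in CMT-27, 1.38% for CMT-28, 4.10% for CMT-12, 1.87% in CMT-47 and 3.06% in CMT-119, against 4.66% in CMEC1, 4.67% in CMEC2 and 6.74% in CMEC3. Without miR-21, CMT-119 reached 6.64% and passed CMEC2 at 6.48%. The log2 difference of miR-99a was -1.15 ± 0.60 in the first sum and -0.83 ± 0.54 in the second (SE, 5 against 3 libraries; limma adjusted p = 0.532 and 0.451).

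Of the 2 sums, miR-181a and miR-101 separated the groups in the one without miR-21 and not in the other. On deposited values miR-181a also separated them, at 323 to 3048 in CMT and 107 to 207 in CMEC, and miR-101 did not. The normalisation of these values is not given, so whether a library sum enters them is unknown. miR-181a, which acts in lymphocyte development, had 0.0445% in CMT-47, the lowest CMT share with miR-21 in the sum, below CMEC1 at 0.0470% and CMEC2 at 0.0546%. Without miR-21 it had 0.0976% in CMT-47 and 0.0974% in CMEC1, a separation by a hair. miR-101, described to repress EZH2, was at 0.448% to 1.71% in CMT and 0.383% to 0.424% in CMEC without miR-21, and overlapped with it. miR-503, miR-130a and miR-1841 likewise parted in the sum without miR-21 and not in the other, and miR-503 and miR-1841 also did on deposited values. Their lowest recovered reads were 5, 1 and 0, so those separations rest on few reads.

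No share passed the threshold in either sum. limma on log2(share in parts per 1000000, + 10) called 0 of 192 other miRNAs with miR-21 in the sum (0.00%) and 0 of 192 without it (0.00%). At an unadjusted p under 0.05 there were 20 (10.4%) and 26 (13.5%). The smallest adjusted p was 0.219 and 0.158. The median log2 difference of the other miRNAs was 0.42 with miR-21 in the sum and 0.72 without it, and 9 miRNAs lower in CMT in the first were higher in the second. Without CMEC1, limma called 7 in the first sum and 6 in the second, among them miR-182 and miR-183, which were higher, and miR-10a, which was lower in CMT (miR-182 and miR-10a are named after their values were seen).

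Among the leading other miRNAs, the differences of miR-27b went from 1.33 ± 0.78 to 1.65 ± 0.73 (SE; limma adjusted p = 0.639 and 0.342). Those of miR-148a went from -2.06 ± 0.83 to -1.74 ± 0.82 (SE; limma adjusted p = 0.339 and 0.349). With miR-21 in the sum, miR-148a passed the threshold without CMEC1 (limma adjusted p = 0.0160) and with no filter on low values (limma adjusted p = 0.00907). let-7a went from -0.33 to -0.01, let-7b from -0.34 to -0.02 and let-7f from -0.65 to -0.33. This is the shift of 0.32 that removal gives to every share before the pseudocount, so it is not particular to let-7. miR-143 stood at -2.82 and -2.51 and passed the threshold in both sums with no filter (limma adjusted p = 0.00263 and 0.0130). With no filter and miR-21 in the sum, the differences of miR-143 and miR-148a were unchanged. Their SE went from 1.78 to 0.641 and from 0.83 to 0.515. That fit took in 451 miRNAs, although only 241 of the table were above the floor in any library. Passing with no filter is therefore not read as support. miR-140 stood at 0.58 and 0.91 and miR-30a at 0.55 and 0.87.

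The ratio of miR-21 to a single other miRNA is free of any sum. Against 104 miRNAs above the floor in all libraries, the mean log2 ratio of miR-21 was higher in CMT for 41 and lower for 63, with a median difference of -0.33. It was 2.44 higher in CMT against miR-148a, 3.22 against miR-143 and 1.53 against miR-99a. It was lower against miR-27b (-0.95), miR-30d (-0.80) and miR-181b (-2.44). Of 192 ratios, 3 did not overlap between groups (1.56%). miR-31 was higher relative to miR-21 in CMT (0.521% of those tested), and miR-34a and miR-504 were lower (1.04%). These separations rest on the floor and support nothing: miR-504 was above it in the 3 CMEC samples only and so passed the filter through that group, miR-31 was above it in the 5 CMT lines and, with 1 read, in CMEC1, and miR-34a was above it in 5 libraries. miR-34a and miR-504 fall outside the rule for named miRNAs and are named after their values were seen.

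The 5 miRNAs whose pattern was most like that of miR-21 had the smallest SD of the log2 ratio to it over the 8 libraries. They were miR-365 (0.64), miR-22 (0.64), miR-24 (0.66), let-7a (0.72) and miR-98 (0.73), against a median of 1.45 over 104 miRNAs. miR-24, of the miR-23, miR-27 and miR-24 clusters, was exceeded by miR-21 17.3-fold in CMT-27, 52.6-fold for CMT-28, 16.9-fold for CMT-12, 55.8-fold in CMT-47 and 36.8-fold in CMT-119. In CMEC1 to CMEC3 the ratio was 34.9-fold, 27.8-fold and 43.3-fold, inside the range of the tumour lines. miR-22, abundant in many tissues, was exceeded 20.4-fold to 53.0-fold in CMT and 41.8-fold to 98.1-fold in CMEC. let-7a was exceeded 11.8-fold to 39.4-fold in CMT and 8.83-fold to 20.7-fold in CMEC. miR-365 had as few as 4 recovered reads in a library and miR-98 as few as 21, so part of their spread is counting error. These are ratios of values that share a library, and they are given as a description.

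**Figure D5:**
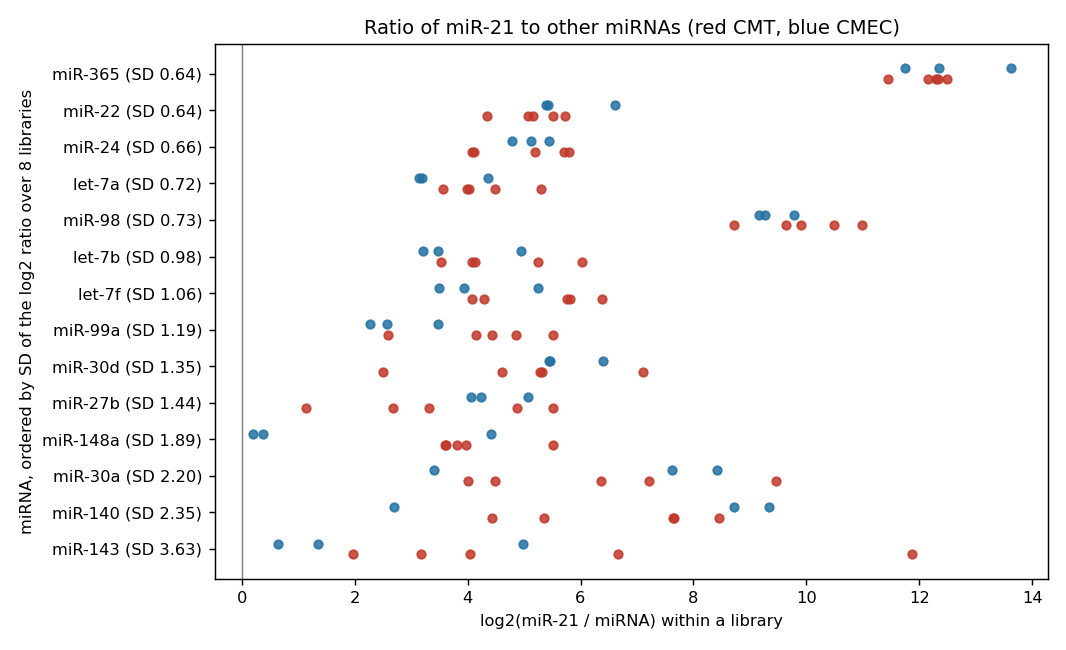
Points show the log2 ratio of miR-21 to another miRNA of the same library (x axis), with CMT in red and CMEC in blue, for the 10 leading other miRNAs and the 5 most like miR-21 (let-7a is both), ordered by the SD of that ratio. The points of miR-365, miR-22, miR-24, let-7a and miR-98 lie close together, whereas those of miR-143 (SD 3.63) spread from 0.65 to 11.9.

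By the same measure miR-21 was among the steadier miRNAs. Its median SD of the log2 ratio to the others was 1.45, the place 21 from the smallest of 105, where the range was 1.23 to 4.59. Ratios to miR-21 varied far more for miR-122 (SD 4.82), miR-199 (4.06) and miR-143 (3.63). miR-21 was 1.57-fold miR-143 in CMEC2 and 3750-fold in CMT-27. It was 2.55-fold miR-122 in CMT-12 and 66754-fold in CMT-28.

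Other miRNAs tied to miR-21 by regulation or targets were looked up from lists chosen with earlier results known, and limma called 0 members of each list given here. Of all 192 other tested miRNAs, 130 had a higher mean share in CMT with miR-21 in the sum and 139 without it. The counts of list members below are on deposited values, which is another scale. The count over all miRNAs on that scale is not given here, so the counts cannot be set directly against 130 or 139. Several members of a list come from the same cluster, so they do not count as separate cases. Of 7 tested others described to respond to STAT3, NF-kB or AP-1, 6 had a higher mean in CMT, with a median log2 difference of 2.93 against 0.75 over all tested miRNAs. miR-181b, which STAT3 is described to activate in human cells, had the smallest p, at 3.11 (limma adjusted p = 0.196), and CMT values of 250 to 1706 against 53.8 to 81.6. miR-31 was at 2.32 to 348 in CMT and at the floor of 1 in CMEC2 and CMEC3, with 1.09 in CMEC1, which is 1 read.

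The 3 tested others described to target PDCD4 had higher means in CMT, with a median log2 difference of 4.22, and none passed the test. They include miR-182 and miR-183, which are of 1 cluster. miR-183, of the miR-183 cluster in sensory and epithelial cells, was at 4.52 (limma adjusted p = 0.151), with 1676 in CMEC1 against 14.2 and 40.2 in CMEC2 and CMEC3. The groups overlapped, since CMT-28 (801) and CMT-119 (1538) lay below CMEC1. Of miRNAs whose processing SMAD proteins are described to aid in human cells, only miR-199 was tested besides miR-21, and it was at -4.19 (limma adjusted p = 0.385). In the list of widely described oncogenic miRNAs, 11 of 12 tested others had a higher mean in CMT, with a median of 2.25. In the list of tumour-suppressive ones 7 of 15 had a higher mean, with a median of -0.01. These counts are on the deposited scale, on which the median of all tested miRNAs was itself above 0, and on shares without miR-21 the medians were 2.05 and -0.01 against 0.72 over all.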

How the data were processed

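The authors' deposited table holds a linear signal, already normalised, for every mature miRNA locus in each library. Per the submitters' processing notes the genome build was canFam3. For the aligner, the counting program and the normalisation method the entry is: not given in the sources used here. Above the floor of 1, 99.0% to 100% of the deposited signal values of a library were whole multiples of 1 step (tolerance 0.05 steps), so they were read as reads over 1 factor per library. Recovered reads over the listed loci numbered 81138 to 1405893. Of several loci of 1 miRNA (45 miRNAs), the one with the highest mean was kept.

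Testing covered miRNAs exceeding the floor in 3 or more of 8 libraries, on log2(value + 1) with limma 3.58.1 (eBayes with trend, R 4.3.3), coded as CMT minus CMEC, at a Benjamini-Hochberg threshold of 0.05. Such differences understate changes of low miRNAs. Shares were fitted as log2(share in parts per 1000000, + 10). Single values were compared by a two-sided exact permutation test on the absolute difference of means. The model was also run on simulated data with independent normal noise for each miRNA. Those data had no floor and no differences in depth, so they do not show how the model performs under either. Negative binomial models were not run, since the table is not one of counts, and limma-voom on the recovered reads was an alternative chosen after seeing the data. miRNA sequences, and so the seed of miR-21, were not used here.

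The named miRNAs were the second and the third of each library, the 10 with the highest mean share, the 5 most like miR-21 by the SD of the log2 ratio, the smallest p of each list, and up to 6 whose separation of groups changed on removal of miR-21. The members and lists were chosen with earlier results of these data known. Alternatives covered libraries, loci, floor, pseudocount, filter, scaling and test. The result of 1 list is not reported here.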

Additional observations from a re-analysis of the deposited data

Results flagged for a closer look

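Among the tumour lines, 5 of 31 results had 1 line set well apart from the remaining 4, by a rule that flags about 1 in 20 by chance. A group of 3, such as CMEC, was not screened. The leading other miRNA of the sum without miR-21 held 30.5% in CMT-47, against 15.4% in the next line. The effective number of miRNAs with miR-21 in the sum was 10.1 in CMT-12, against 3.87 in the next line. As log2(share in parts per 1000000, + 10), miR-183 was at 14.46 in CMT-12 against 12.18 in the next line. On that scale miR-503 was at 9.34 in CMT-12 against 6.27, and miR-31 at 8.52 in CMT-27 against 5.22.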

How the results depend on the processing

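Of 135 alternative values of 9 results, 121 kept their direction and their side of the threshold. The log2 difference of miR-21 reversed to -0.41 after median centring and to -0.27 with limma-voom scaled by median of ratios, an alternative chosen after seeing the data. It ran from 0.20 to 1.24 with each library left out. Quantile normalisation gave no value for it, because miR-21 is first in every library and is then equal in all. Its share difference ran from 7.03 to 18.9 points with each library left out and was 11.3 with loci summed. The log2 lead ran from 1.05 to 2.30. With each library left out, the difference in the effective number of miRNAs ran from -1.62 to 0.29 with miR-21 and from 4.93 to 10.0 without it. That of the leading other miRNA ran from -18.5 to -8.25 points. The number of miRNAs called ran from 0 to 6 on deposited values, from 0 to 7 on shares with miR-21 and from 0 to 6 on shares without it, and in each the calls came without CMEC1. With no filter, limma called 6 and 7 of 451 shares with and without miR-21, where 192 had been tested. miR-143 and miR-183 were among them in both, miR-148a with miR-21 only and miR-122 without it only. Those fits took in miRNAs at the floor in all libraries. On deposited values with no filter, where rows without spread drop out, limma called 0 of 241. The cause was not tested. Without CMT-47 the leading share differed by -15.6 points. The planned negative binomial models and voom with TMM were not run. No paired analysis was made, because the labels match no tumour line with a normal sample. Depth limits the lists more than miR-21 itself, since 1 read was worth 2.83 in CMEC2.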

Other observations

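In a look chosen after these values were seen, the most abundant other miRNAs of CMEC2 and CMEC3 were taken out of the sum. Such a removal must raise the share of miR-21 most in the libraries where those miRNAs are high. The values below are therefore a description and test nothing. miR-148a and miR-143 together held 42.2% in CMEC2 and 37.8% in CMEC3, against 4.06% in CMEC1 and 1.10% to 18.3% in the tumour lines. With both taken out of the sum, miR-21 held 53.9% in CMEC1, 48.3% in CMEC2 and 52.3% in CMEC3, a mean of 51.5% ± 2.88 (SD, n = 3). The tumour lines then lay between 25.4% (CMT-12) and 68.4% (CMT-28), with a mean of 54.1% ± 17.6 (SD, n = 5). Relative to the median of the 105 miRNAs above the floor in all libraries, miR-21 was 252-fold (CMT-12) to 2017-fold (CMT-47) in the tumour lines and 858-fold (CMEC2) to 1411-fold (CMEC3) in the normal samples.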
